A study of Bos taurus with 13 samples.

Results

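bta-miR-451 and bta-miR-486, the pair of microRNAs that dominate the small RNA of red blood cells, were followed through the follicular fluid of dairy cattle, together with bta-miR-144, the cluster partner of bta-miR-451. The members were taken by miRNA name. They make up 3 of the 311 miRNAs listed for any library, and bta-miR-451 and bta-miR-486 belong to the 262 miRNAs listed for every library, whereas bta-miR-144 was listed for heifers only.

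The RNA came from extracellular vesicles (EVs), the small membrane particles that cells release, which had been isolated by ultracentrifugation from the fluid of large ovarian follicles of Holstein Friesian cattle. Cows in early lactation had been grouped by serum metabolites, body weight and calculated energy balance. Transient cows (TCs) were in negative energy balance at weeks 5 and 6 after calving (3 pools, 11 animals) and in positive balance at weeks 9 and 10 (3 pools, 7 animals). Always negative cows (ANCs; 2 pools, 2 animals) and always positive cows (APCs; 2 pools, 2 animals) were sampled at weeks 5 and 6, and heifers, young females that had not calved (3 pools, 8 animals), were the unlactating control in positive balance. No group was treated. Each library is a pool, the 2 smallest groups rest on 2 animals each, and fluid contaminated with blood had been discarded by the authors. How the animals of these 2 groups were divided between their libraries is not given. Whether their 2 libraries are independent is therefore not known, and the fits took them as independent.

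miR-451 is made in maturing red cells from the same primary transcript as miR-144, and it is unusual in that it is not cut by Dicer but by the slicer activity of an Argonaute protein. miR-486 lies inside ANK1, the gene of the ankyrin that anchors the red cell membrane skeleton, and it is also made in muscle. Both are abundant in circulating red cells and are released into plasma when these break, which is why they are used to judge blood and haemolysis in body fluids. In the bovine gene table used here (assembly ARS-UCD2.0) MIR451 sits next to MIR144, and MIR486 lies within ANK1.

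The 13 libraries held between 145030 and 421435 miRNA reads (median 327359). Levels are given as reads, and as CPM (reads per 1e6 miRNA reads) after scaling the 13 libraries together by the trimmed mean of M-values (TMM). On that scale 3 reads, taken as the smallest visible abundance, stood at 7.30 to 20.1 CPM.

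bta-miR-451 was a minor miRNA of the vesicles and differed widely between pools. It was read 873 times in all, its median was 143.6 CPM, and its rank by abundance lay between 94 and 267 in the single libraries. In ANCs it was read 0 times in replicate 1 and 5 times in replicate 2 (0 and 33.5 CPM). In TCs at weeks 5 and 6 it was read 11, 19 and 42 times (37.7, 54.1 and 144.2 CPM). Both ANC pools lay below all pools of TCs at weeks 5 and 6, and the library without a read allows up to 11.9 CPM. ANC replicate 2 lay below the lowest of these TC pools by less than its 1 read (6.70 CPM). In heifers it was read 75, 67 and 45 times (370.6, 167.3 and 121.3 CPM). In TCs at weeks 9 and 10 it was read 52, 186 and 104 times (126.5, 667 and 273 CPM). In APCs it was read 224 and 43 times (768.5 and 143.6 CPM). The ranges of these last 3 groups overlapped one another, and the APC pools lay far apart.

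bta-miR-486 was about an order of magnitude more abundant, with 12593 reads in all, a median of 1994 CPM and ranks between 24 and 144. The ANC pools held 33 and 166 reads (130.7 and 1111 CPM). The pools of TCs at weeks 5 and 6 held 208, 312 and 1584 reads (712.8, 887.5 and 5439 CPM). Here the ANC range reached into that of the TCs, whose replicate 3 stood well above the other pools of its group. Heifers held 726, 797 and 592 reads (3588, 1990 and 1596 CPM). The APC pools held 2380 and 597 reads (8166 and 1994 CPM). TCs at weeks 9 and 10 held 945, 2871 and 1382 reads (2298, 10300 and 3628 CPM). The highest pool of all was thus replicate 2 of the TCs at weeks 9 and 10, and the lowest was replicate 1 of the ANCs, as it was for bta-miR-451.

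bta-miR-144, made from the same transcript as bta-miR-451, was close to the limit of what these libraries could show. The heifer pools held 2, 4 and 1 reads of it, so that only 1 of 3 pools passed the floor of 3 reads, and no comparison was made. In the other groups it was not listed and was not analysed here.

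**Figure D1:**
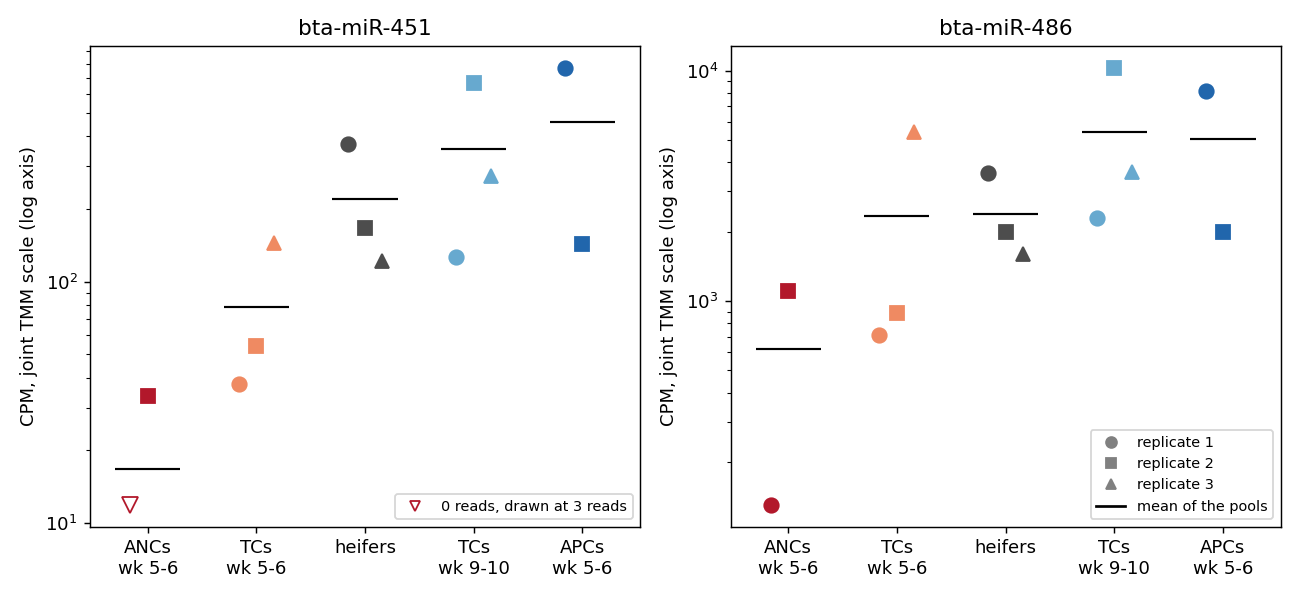
CPM of bta-miR-451 (left) and bta-miR-486 (right) on a log axis, on the joint TMM scale, in each pool of the 5 groups. Symbols give the replicate, bars the mean of the pools, and the open triangle an ANC library with 0 reads drawn at its 3-read level of 11.9 CPM. The ANC pools sit lowest for bta-miR-451 (0 and 33.5 CPM), and pools of 1 group can lie far apart (143.6 and 768.5 CPM in APCs).

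Ordered by mean level, bta-miR-451 stood at 16.7 ± 23.7 CPM in ANCs (SD, n = 2), 78.7 ± 57.4 in TCs at weeks 5 and 6 (n = 3), 219.7 ± 132.7 in heifers (n = 3), 355.5 ± 279.5 in TCs at weeks 9 and 10 (n = 3) and 456.1 ± 441.9 in APCs (n = 2). bta-miR-486 stood at 620.9 ± 693.2 CPM in ANCs, 2346 ± 2680 in TCs at weeks 5 and 6, 2391 ± 1055 in heifers, 5080 ± 4364 in APCs and 5409 ± 4288 in TCs at weeks 9 and 10, with the same numbers of pools. No step between neighbours in either order passed the test described next. For bta-miR-486 the SD within a group was as large as the mean or close to it in 4 of the 5 groups, heifers being the exception.

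Groups were compared in pairs with limma on log2(CPM + 5), where the CPM were scaled over the 2 groups. The fit ran across all miRNAs listed for both that passed a filter on low counts. With 0 and 5 reads in ANCs, bta-miR-451 passed that filter through the pools of the other group. Its ranks and its lack of overlap in ANC comparisons are therefore descriptions only. A miRNA counted as differentially expressed (DE) when its log2 fold change reached 1 in either direction with a p-value below 0.05 and, after Benjamini-Hochberg adjustment over all miRNAs tested, an adjusted p-value no higher than 0.25. Fold changes are differences of log2(CPM + 5), a scale on which the change of a low miRNA such as bta-miR-451 shrinks as the pseudocount grows. Of the 10 comparisons, each member was called in 1, ANCs against heifers. Several comparisons share a group and hence its libraries, so their values are given side by side and are not independent of one another.

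Both members fell in ANCs relative to heifers, the comparison of lasting energy deficit with unlactating animals. bta-miR-451 was 14.2-fold lower on this scale (log2 fold change -3.82, SE 0.90, 95% interval -5.89 to -1.76, limma adjusted p = 0.0749) and had the second largest change of the 215 miRNAs tested. bta-miR-486 was 5.45-fold lower (-2.45, SE 0.83, interval -4.37 to -0.53, limma adjusted p = 0.138). Neither member had an ANC pool within the range of the heifers, and the exact two-sided permutation p was 0.1 for each, the smallest that 2 pools against 3 allow. In this comparison 18.6% of all miRNAs tested were called, 14 up and 26 down, and 47.4% did not overlap between the groups.

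The size of the bta-miR-451 change depended on how the value of 0 was treated, with -5.02 at a pseudocount of 1 CPM and -2.72 at 20 CPM, and the call held at both. It was lost without ANC replicate 1 (-2.24, limma adjusted p = 0.261) and without heifer replicate 1 (-3.38, limma adjusted p = 0.295). The bta-miR-486 call was lost without the same libraries (-0.84, limma adjusted p = 0.371, and -2.14, limma adjusted p = 0.420) and with edgeR on recovered reads (-1.79, edgeR adjusted p = 0.260). Over all miRNAs the 40 calls became 0 without ANC replicate 1, 6 without heifer replicate 1 and 17 without heifer replicate 2.

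RNA of the libraries numbered 1 was measured on a first day and that of the others on a second, apart from APC replicate 2, for which no day was given. On the first day bta-miR-451 stood at 0 CPM in ANCs and 370.6 CPM in heifers, and bta-miR-486 at 130.7 and 3588 CPM. On the second day bta-miR-451 stood at 33.5 CPM in ANCs against 167.3 and 121.3 CPM in heifers, and bta-miR-486 at 1111 against 1990 and 1596 CPM. The order was the same on both days. With the day as a covariate the log2 fold changes were -3.72 (limma adjusted p = 0.0248) and -2.31 (limma adjusted p = 0.0807).

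The miRNAs of white blood cells that were tested moved in the same direction in this comparison. Of the 6 leukocyte miRNAs, 5 were tested and 5 of 5 fell in ANCs, with a median log2 fold change of -2.16 beside 0 over all miRNAs tested. They were miR-223, abundant in neutrophils (-2.79), miR-150, typical of mature lymphocytes (-2.47), miR-142-5p, made throughout the blood cell lineages (-2.16), miR-146a, induced by inflammatory signals (-2.14), and miR-155, raised in activated lymphocytes (-1.95). Like all 40 calls, these were lost without ANC replicate 1. Their summed level was 744.8 to 1580 CPM in ANCs and 4868 to 6077 CPM in heifers, and none of the 6 was missing from the lists.

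The liver miRNA miR-122 also fell (log2 fold change -3.31), from 5369 to 17620 CPM in heifers to 328.8 to 2926 CPM in ANCs. Of 5 epithelial miRNAs, 3 were called lower (miR-200b, -1.57, miR-200c, -1.60, and miR-205, -2.14). miR-141 (-1.105) and miR-200a (-0.822) were lower too but not called. The summed level of the list was 4750 to 7673 CPM in ANCs and 13410 to 20850 CPM in heifers. The platelet and endothelial miR-126 arms were not called, at a sum of 1439 to 1498 CPM in ANCs and 1059 to 1764 CPM in heifers. Of 6 tested miRNAs of follicular somatic cells, 3 were called higher (miR-424-5p, 1.66, miR-542-5p, 1.37, and miR-450b, 1.06) and miR-132 was called lower (-3.61). miR-202 stood at 0.773 and was not called. The 3 called higher belong to one X-linked cluster, of which miR-503-5p stood at -1.07 and was not called. The part of any of these cell types in the lower bta-miR-451 and bta-miR-486 was not tested, and in pooled vesicle RNA fewer vesicles of a type and less of the miRNA per vesicle cannot be told apart.

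ANCs against APCs set the groups of constant energy status beside each other. bta-miR-451 was 23.0-fold lower in ANCs (log2 fold change -4.52, SE 1.28, interval -7.81 to -1.24) and bta-miR-486 was 10.1-fold lower (-3.34, SE 1.23, interval -6.49 to -0.19), the largest and second largest changes among 207 miRNAs. Neither was called, since the limma adjusted p was 0.536 for each. The groups did not overlap for either member, as was true of 43.5% of all miRNAs tested, and the exact permutation p of 0.333 is the smallest that 2 pools against 2 allow. limma called 0% of miRNAs (0 of 207, with 17 at an unadjusted p under 0.05), edgeR called 0 and DESeq2 called 6. DESeq2 called both members here (adjusted p = 0.00915 and 0.156). limma called both once ANC replicate 2 (-5.92 and -4.88), APC replicate 1 (-3.31 and -2.28) or APC replicate 2 (-5.82 and -4.40) was left out, in refits that called 21, 36 and 7 miRNAs in all, with the lone pool taken to vary like the other group. Without ANC replicate 1 the values were -3.07 and -1.80 (limma adjusted p = 0.936 for each) and limma called 0. Leukocyte miRNAs were lower in ANCs here too, though none was called, with a median log2 fold change of -1.47 over the 5 tested (miR-150 -1.93 and miR-223 -1.59, limma adjusted p = 0.536 for each). The epithelial list had a median of -1.11 and miR-122 stood at -0.93, beside -0.01 over all miRNAs.

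ANCs against TCs at weeks 9 and 10 gave changes of similar size. bta-miR-451 ranked first of 233 miRNAs by size and by p (log2 fold change -4.48, SE 0.97, interval -6.71 to -2.25, limma adjusted p = 0.376), and bta-miR-486 ranked second by both (-3.55, SE 0.92, interval -5.66 to -1.45, limma adjusted p = 0.524). The median of all miRNAs tested was -0.19. For both members the ANC pools lay entirely below the TC pools (exact permutation p = 0.1, the smallest possible), and 27.5% of all miRNAs tested did not overlap between these groups. limma called 0% (0 of 233, with 13 at an unadjusted p under 0.05), edgeR 0 and DESeq2 4, both members among them (adjusted p = 0.00342 and 0.0497). With the measurement day as a covariate limma called both, at -4.10 and -3.20. It also called both without ANC replicate 2 (-6.03 and -5.11, 5 calls in all), and bta-miR-451 without replicate 1 of the TCs (-5.04, the 1 call made). Without ANC replicate 1 neither was called (-2.88 and -1.93, 0 calls in all). The leukocyte list had a median of -0.89 and miR-122 stood at -1.74, none of these called.

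Against TCs at weeks 5 and 6, which were in negative balance in the same weeks, bta-miR-451 was 5.08-fold lower in ANCs (log2 fold change -2.35, SE 0.97, interval -4.65 to -0.04, limma adjusted p = 0.550). The pools did not overlap (exact permutation p = 0.1, the smallest possible), which held for 27.1% of the miRNAs tested. The gap was narrow, at 33.5 CPM in ANC replicate 2 and 37.7 CPM in TC replicate 1 on the joint scale. This is less than 1 read of ANC replicate 2 (6.70 CPM). For bta-miR-486 the pools overlapped (-1.98, SE 1.14, interval -4.67 to 0.72, limma adjusted p = 0.582). limma called 0% here (0 of 225, with 18 at an unadjusted p under 0.05), and edgeR and DESeq2 called 0. Without ANC replicate 2 bta-miR-451 was called (-3.84, limma adjusted p = 0.207), as 1 of 7 calls. Without ANC replicate 1 it was -0.83 and bta-miR-486 -0.37 (limma adjusted p = 0.95 for each, 0 calls). The leukocyte list had a median of -1.19 and miR-122 stood at -2.28, beside -0.09 over all miRNAs, and none was called.

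In TCs themselves, weeks 9 and 10 were set against weeks 5 and 6, that is, recovery against deficit. Pools of both times were drawn from the same set of transient cows. How many animals the 2 times share is not known, and the main fit took their pools as independent. bta-miR-451 had the second largest difference of 224 miRNAs, 4.06-fold higher at weeks 9 and 10 (log2 fold change 2.02, SE 0.70, interval 0.44 to 3.60, limma adjusted p = 0.573). bta-miR-486 was 2.94-fold higher (1.56, SE 0.81, interval -0.28 to 3.39, limma adjusted p = 0.573). Neither was called, and the pools of both overlapped. limma called 0% of miRNAs (0 of 224, with 12 at an unadjusted p under 0.05), edgeR 0 and DESeq2 8. DESeq2 gave no adjusted p for 147 of the miRNAs, bta-miR-451 (2.15) among them, so that member could not be called there. For bta-miR-486 it gave 1.16 (DESeq2 adjusted p = 0.465).

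TCs at weeks 5 and 6 were compared with heifers to set transient deficit beside no deficit. bta-miR-451 was 2.80-fold lower (log2 fold change -1.49, SE 0.61, interval -2.92 to -0.06), just outside the threshold (limma adjusted p = 0.269), where 6.96% of miRNAs were called. It was called with DESeq2 (-1.38, adjusted p = 0.232) and with total reads in place of TMM (-1.69, limma adjusted p = 0.189), and by limma without heifer replicate 3 (-1.83). bta-miR-486 differed by -0.58 (SE 0.78, interval -2.41 to 1.26, limma adjusted p = 0.695) and by 0.037 without replicate 1 of the TCs. Pools of the 2 groups overlapped for both members. Same-numbered pools deviated together in this comparison. With the replicate number as a block, 29 in place of 16 miRNAs were called and neither member was among them (-1.49, limma adjusted p = 0.192, with an unadjusted p above 0.05, and -0.58, limma adjusted p = 0.620). With the measurement day as a covariate none of the 16 calls was left, and 0 miRNAs were called without TC replicate 1, TC replicate 3, heifer replicate 1 or heifer replicate 2, 46 without TC replicate 2 and 29 without heifer replicate 3. Of the 5 leukocyte miRNAs tested 3 were called lower here, miR-223 (-1.80), miR-155 (-1.63) and miR-146a (-1.05). miR-150 (-0.815) and miR-142-5p (-0.443) were lower too but not called.

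The remaining 4 comparisons gave values close to 0 relative to their errors or with wide intervals. Against heifers, APCs differed by 0.90 for bta-miR-451 (SE 0.79, interval -0.97 to 2.78, limma adjusted p = 0.609) and by 0.995 for bta-miR-486 (SE 0.67, interval -0.60 to 2.59, limma adjusted p = 0.488), where 12.4% of miRNAs were called. These differences rested on APC replicate 1. Without it they were -0.33 and -0.06, and without APC replicate 2 both were called, at 2.14 and 2.05 (limma adjusted p = 0.170 and 0.154), in a refit with 45 calls in all. The 29 calls over all miRNAs became 48 without APC replicate 1, 46 without heifer replicate 3 and 3 without heifer replicate 1.

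TCs at weeks 9 and 10 differed from heifers by 0.58 for bta-miR-451 (SE 0.63, interval -0.86 to 2.01, limma adjusted p = 0.791) and by 1.02 for bta-miR-486 (SE 0.55, interval -0.24 to 2.28, limma adjusted p = 0.590). Without replicate 2 of the TCs the first was -0.002. limma called 0% there (0 of 227, with 24 at an unadjusted p under 0.05), edgeR 0 and DESeq2 14. APCs differed from TCs at weeks 9 and 10 by 0.31 (SE 0.92, interval -1.91 to 2.54) and -0.04 (SE 0.82, interval -2.02 to 1.94), where 10.0% of miRNAs were called, and the signs changed without APC replicate 1 (-0.93) or TC replicate 1 (-0.30) for bta-miR-451 and without APC replicate 2 (1.03) or TC replicate 2 (0.54) for bta-miR-486. The 23 calls there became 0 without TC replicate 3 and 44 without APC replicate 1.

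APCs against TCs at weeks 5 and 6 was the one of these 4 with a wide gap for bta-miR-451, 4.83-fold higher in APCs (log2 fold change 2.27, SE 0.85, interval 0.23 to 4.31, limma adjusted p = 0.993). Its pools did not overlap on the scale of the pair, as for 15.1% of miRNAs, although on the joint scale the lower APC pool (143.6 CPM) and the highest TC pool (144.2 CPM) were level. bta-miR-486 differed by 1.47 (SE 0.996, interval -0.93 to 3.86, limma adjusted p = 0.993). The gap depended on the APC pools, with 1.09 and 0.46 without replicate 1 and 3.46 and 2.48 without replicate 2, none of them called. limma called 0% (0 of 225, with 6 at an unadjusted p under 0.05), edgeR 0 and DESeq2 1.

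**Figure D2:**
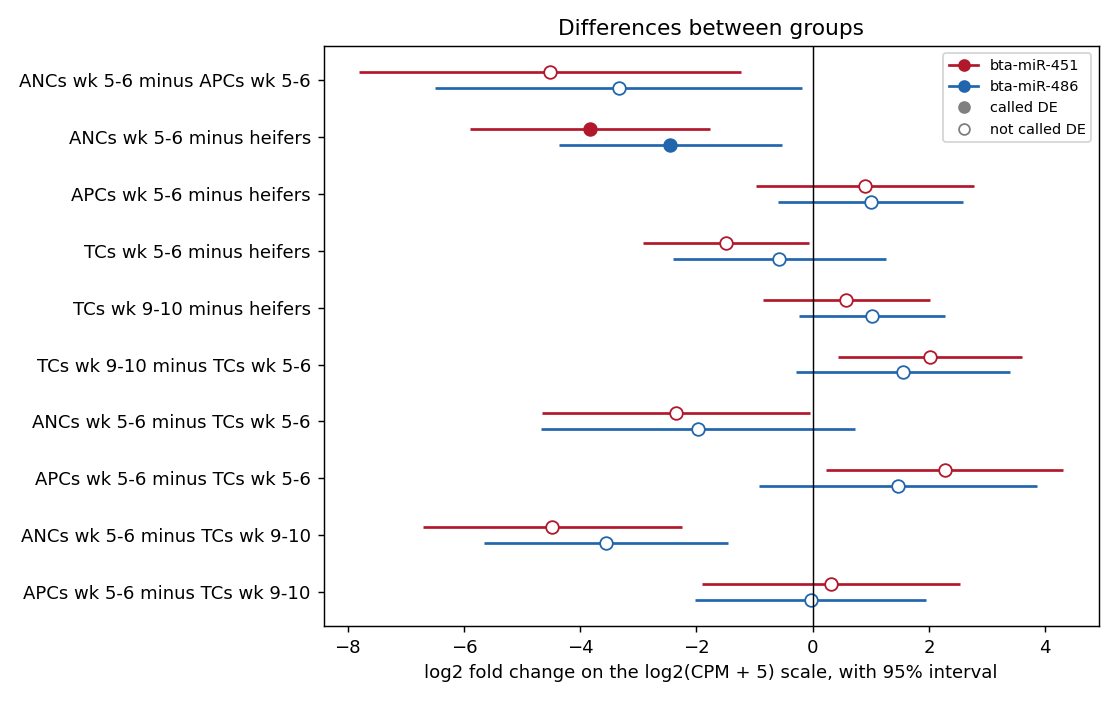
Log2 fold change of bta-miR-451 (red) and bta-miR-486 (blue) in the 10 comparisons, first group minus second, with 95% intervals from limma on the log2(CPM + 5) scale. Filled points were called DE, which holds for both members in ANCs against heifers alone (-3.82 and -2.45).

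Wide intervals went with a wide spread between pools of the same group. In the 10 fits the residual SD of the members lay between the 84.8th and the 98.3rd percentile of the miRNAs tested. Over the 13 pools the SD of log2(CPM + 5) was 1.94 for bta-miR-451 and 1.65 for bta-miR-486, rank 5 and 6 of 220 miRNAs, beside a median of 0.59. Within groups it was 1.28 and 1.37 (rank 11 and 8), beside a median of 0.56.

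The members moved together from pool to pool, and each was the miRNA most like the other, over all pools and within groups. Over the 13 pools bta-miR-451 and bta-miR-486 had a Pearson r of 0.959 (permutation p = 1e-05, the smallest that the permutations can give, adjusted p = 5e-05 over 5 relations) and a Spearman rho of 0.907 (permutation p = 3e-05, adjusted p = 0.00015). Without the pools farthest from the median, ANC replicate 1 and replicate 2 of the TCs at weeks 9 and 10, r was 0.893, and after subtracting group means it was 0.959. Among the 7 pools measured on the second day r was 0.884 (exact permutation p = 0.00873) and rho 0.857 (exact permutation p = 0.0238), while the first day held only 5 pools. Both values of a pool share its library and its scaling.

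**Figure D3:**
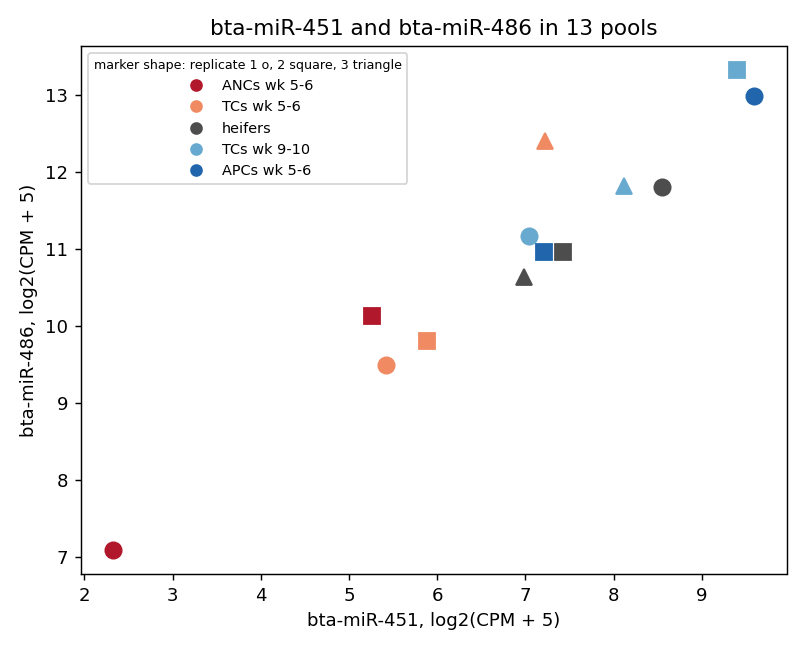
bta-miR-486 against bta-miR-451 in the 13 pools, both as log2(CPM + 5) on the joint scale, coloured by group and with the symbol giving the replicate. The points follow one rising line (r = 0.959), with ANC replicate 1 at its lower end and APC replicate 1 and replicate 2 of the TCs at weeks 9 and 10 at its upper end.

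Of the 219 miRNAs set beside each member, 1 had an r over 0.8, and it was the other member. The next most like bta-miR-451 were miR-150 (r = 0.671), miR-6120-3p (0.628), miR-142-5p (0.626) and miR-127 (0.583). Those next to bta-miR-486 were miR-150 (0.611), miR-142-5p (0.574), miR-6120-3p (0.537) and miR-1246 (0.509). The median r over all 219 was 0.015 for bta-miR-451 and 0.017 for bta-miR-486. After subtracting group means the order below the first place was another one. miR-204 then came second for both members (0.864 and 0.868), followed by miR-23a (0.690 and 0.781), and miR-150 had 0.408 with bta-miR-451. The lowest r over all pools was that of miR-31, -0.805 with bta-miR-451 and -0.784 with bta-miR-486. miR-204, miR-23a and miR-31 were picked here after their values were seen. These likenesses are over 13 pools that share depth and scaling, and miR-150 and miR-142-5p belong to the leukocyte list.

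Other miRNAs that red cells hold in quantity were much less like the members. Of 10 such miRNAs 8 were listed for every group, and their r with bta-miR-451 ran from -0.324 (miR-92a, a member of the miR-17-92 cluster) through -0.009 (miR-15a) to 0.408 (miR-16b). bta-miR-16a and bta-miR-16b, whose near-identical sequences can split reads between them, had 0.359 and 0.408. These miRNAs are made by many cell types and were far more abundant, with a summed level of 116400 to 198600 CPM over all pools. In ANCs it was 116600 to 167200 CPM and in heifers 132300 to 149600 CPM, so that these ranges overlapped. The summed bta-miR-451 and bta-miR-486 did not (130.7 to 1145 CPM in ANCs and 1717 to 3958 CPM in heifers). At least 90.6% of their reads in a library were bta-miR-486. Single members of the list went both ways. Both ANC pools lay below all heifer pools for miR-16a and miR-16b, and above them for miR-92a and, narrowly, miR-25. On the scale of the pair 47.4% of all miRNAs tested did not overlap.

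In the 10 comparisons limma called 1 member of this list once, miR-92a, which rose in ANCs against heifers (log2 fold change 1.195, SE 0.37, limma adjusted p = 0.128). miR-16b stood at -0.88 there (limma adjusted p = 0.138), miR-16a at -0.56 and miR-93 at -0.27, none of them called. Of the 7 members tested there, the median was 0.45 beside 0 over all miRNAs. In ANCs against APCs the list's median was 0.02 beside -0.01 over all miRNAs, in ANCs against TCs at weeks 9 and 10 -0.26 beside -0.19, and between the TC times 0.52 beside -0.05. miR-363 was listed for heifers only, at 3, 10 and 5 reads, and miR-20b for heifers and TCs at weeks 5 and 6, at 1 to 12 reads.

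**Figure D4:**
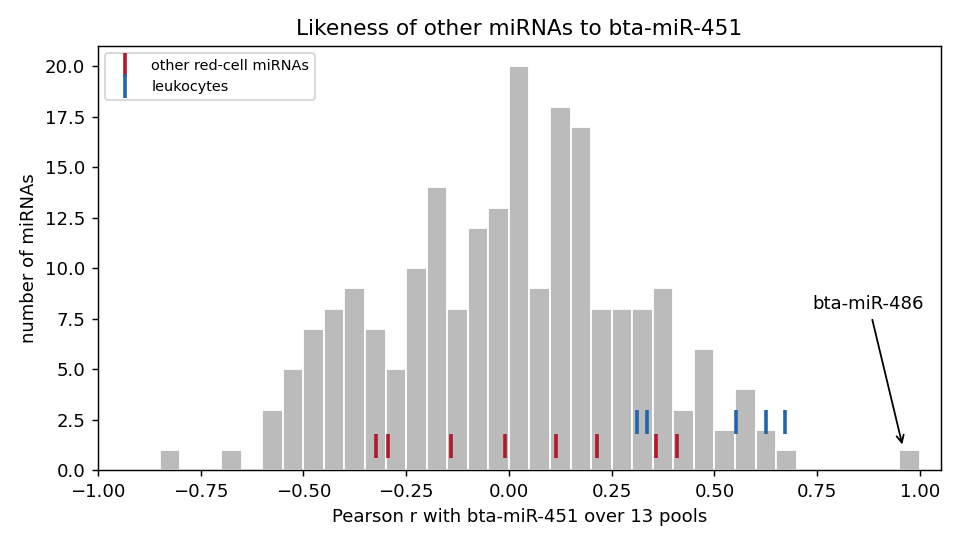
Histogram of Pearson r with bta-miR-451 over the 13 pools for the 219 other miRNAs, as the number of miRNAs per bin of r. bta-miR-486 stands alone at 0.959, whereas the 8 other red-cell miRNAs (red ticks) lie between -0.324 and 0.408 and leukocyte miRNAs (blue ticks) reach 0.671.

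The relation to the leukocyte list was weaker. bta-miR-451 had r = 0.599 with its summed CPM (permutation p = 0.0307, adjusted p = 0.0769) and rho = 0.385 (permutation p = 0.196, adjusted p = 0.490), and r was 0.263 without ANC replicate 1 and heifer replicate 2, so it rests on those pools. bta-miR-486 had r = 0.516 (permutation p = 0.0709, adjusted p = 0.118), rho = 0.214 (permutation p = 0.484, adjusted p = 0.658) and r = 0.155 without the same pools. The groups were not ordered alike by both kinds of blood cell miRNA. The summed leukocyte miRNAs were highest in heifers, with 2762 to 3063 CPM in TCs at weeks 5 and 6, 1573 to 4820 at weeks 9 and 10 and 2144 to 3971 in APCs, while the members were highest in TCs at weeks 9 and 10 and in APCs.

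No relation with sequencing depth passed the test over all pools. r with log2 of the reads per library was 0.295 for bta-miR-451 (permutation p = 0.322, adjusted p = 0.391; rho = 0.148, permutation p = 0.629, adjusted p = 0.658) and 0.255 for bta-miR-486 (permutation p = 0.391, adjusted p = 0.391; rho = 0.137, permutation p = 0.658, adjusted p = 0.658). Without ANC replicate 2 and heifer replicate 1 these r were 0.487 and 0.447. Within groups the sign turned, to -0.637 and -0.491. No p-value is given for these, since the permutations did not allow for the group means that had been subtracted. The part of depth in the spread within groups was not tested further.

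Ratios within a library need no scaling between libraries. For every read of bta-miR-451 there were 9.68, 11.9 and 13.2 reads of bta-miR-486 in heifers and 10.6 and 13.9 in APCs. TCs at weeks 9 and 10 had 18.2, 15.4 and 13.3, and TCs at weeks 5 and 6 had 18.9, 16.4 and 37.7. The ratio was 33.2 in ANC replicate 2, from 5 reads of bta-miR-451, and could not be formed in ANC replicate 1. Over the 12 libraries the median was 14.7, and the highest ratios were those of replicate 3 of the TCs at weeks 5 and 6 and of ANC replicate 2. This is a ratio of reads and not of molecules.

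bta-miR-23a changes little when red cells break and is the usual denominator for miR-451 in tests of haemolysis. By mean log2 ratio of bta-miR-451 to it the order of the groups was ANCs (-10.77), TCs at weeks 5 and 6 (-8.46), APCs (-7.14), heifers (-5.98) and TCs at weeks 9 and 10 (-5.20), so that APCs, the highest group in CPM, stood in the middle. In the single pools it was -12.0 and -9.54 in ANCs and -9.13, -7.96 and -8.29 in TCs at weeks 5 and 6. It was -5.18, -5.70 and -7.07 in heifers and -5.60, -4.92 and -5.09 in TCs at weeks 9 and 10. In APCs it was -5.83 and -8.46, which spanned much of that range. All 3 pools of TCs at weeks 5 and 6 lay below all 3 at weeks 9 and 10, which was not so for bta-miR-451 in CPM. The share of all miRNAs whose ratio to bta-miR-23a parts these groups was not computed. Whether this separation is particular to bta-miR-451 was therefore not tested. For bta-miR-486 the ratio ran from -4.95 to -3.07 at weeks 5 and 6 and from -1.43 to -0.97 at weeks 9 and 10, and in ANCs it was -5.93 and -4.62. bta-miR-23a itself was read 4845 to 13335 times at weeks 5 and 6, 2553 to 5638 times at weeks 9 and 10, and 12756 and 15296 times in APCs, so both sides of the ratio varied, and the reads of bta-miR-451 stayed below those of bta-miR-23a in every library.

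**Figure D5:**
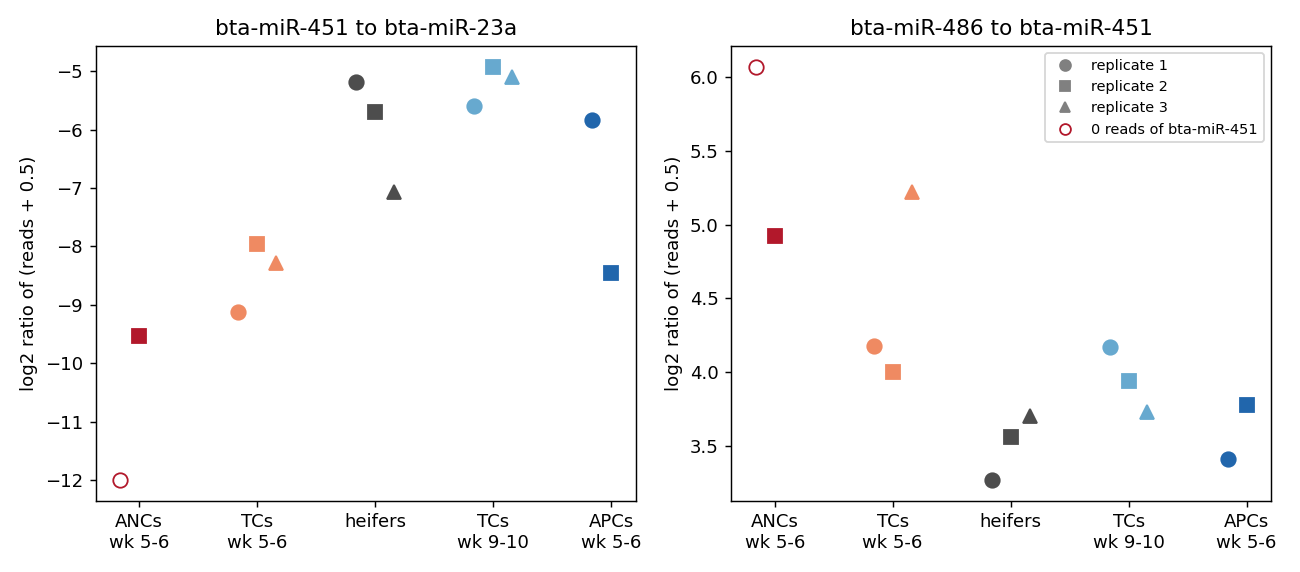
Log2 ratio of reads (each with 0.5 added) of bta-miR-451 to bta-miR-23a (left) and of bta-miR-486 to bta-miR-451 (right) in each pool of the 5 groups, with symbols for the replicate and an open circle for the ANC library with 0 reads of bta-miR-451. On the left ANCs lie lowest (-12.0 and -9.54) and TCs at weeks 9 and 10 (-5.60 to -4.92) overlap the heifers at the top, and on the right heifers (3.27 to 3.70) overlap APCs at the bottom.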

How the data were processed

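Small RNA of EVs was sequenced by the authors with the QIAseq miRNA kit on a NextSeq instrument. Per the submitters' processing notes and the study's methods, adaptors were trimmed with Cutadapt 1.11, reads were mapped to UMD3.1 with Bowtie2 2.2.2, annotated against miRBase and TMM-normalized. Whether molecular identifiers were counted is not given in the sources used here. The deposited values are CPM adjusted by TMM. Where a library's total was too high for plain CPM, its deposited values were treated as a score, although made alike. Totals ran from 822818.3 to 1251163.8. miRNAs not listed for a group were not analysed for it.

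Reads were recovered as whole numbers from the steps in each column (3681 of 3681 within 0.1 read), with 145030 to 421435 per library. Floors cover counting error only. log2(CPM + 5) was fitted with limma 3.58.1 (trend over the mean) for the libraries of each pair of groups, with TMM factors and filterByExpr (minimum count 10, minimum total 15) of edgeR 4.0.16 on the recovered reads, under R 4.3.3. The quasi-likelihood test of edgeR and DESeq2 1.42.0 on recovered reads were alternatives, as were other scalings, pseudocounts of 1 and 20 CPM, no filter, a joint fit, a replicate block, the RNA measurement day (from the study's supplementary metadata) and leaving out each pool. Correlations used 100000 permutations, two-sided. Fits and read recovery were tested on simulated data.

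The members, the marker lists and the named miRNAs (members, red-cell and cell type lists, bta-miR-23a and the 5 miRNAs most like each member among those with at least 10 reads on average) were chosen with earlier results of these data known. Replicates are pools, so p-values measure the spread between pools. Replicate numbers were taken to pair the libraries for TCs at weeks 5 and 6 against heifers, where same-numbered deviations from group means correlated at 0.216, 0.377 and 0.385. The labels do not say what a number shares, but number 1 went with the first day of RNA measurement. A replicate block therefore also takes up the day. Coordinates are not given, since the gene table is of assembly ARS-UCD2.0 and the files of UMD3.1, and mature sequences were not used here.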

Additional observations from a re-analysis of the deposited data

How the results depend on the processing

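Of 294 alternative values of the members in the 10 comparisons, 249 kept their direction and their side of the threshold, 28 passed it, 5 no longer did and 12 changed sign. The changes of call that came from another test or scaling were these. bta-miR-451 and bta-miR-486 in ANCs against APCs were called with DESeq2 (-4.96 and -3.07) and with a replicate block (-4.52 and -3.34). In ANCs against heifers bta-miR-486 lost its call with edgeR (-1.79). In TCs at weeks 5 and 6 against heifers bta-miR-451 was called with DESeq2 (-1.38) and total reads (-1.69). In ANCs against TCs at weeks 9 and 10 both were called with DESeq2 (-4.51 and -3.04), total reads (-4.51 and -3.54), the replicate block (-4.50 and -3.68) and the measurement day (-4.10 and -3.20), and bta-miR-451 also with all 13 libraries in one fit (-4.39). Signs changed for bta-miR-486 in TCs at weeks 5 and 6 against heifers with DESeq2 (0.084), and in APCs against TCs at weeks 9 and 10 with total reads for bta-miR-451 (-0.24) and with edgeR and DESeq2 for bta-miR-486 (0.064 and 0.029). The cause was not tested.

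Leaving out 1 pool in turn gave, for bta-miR-451 and bta-miR-486, -5.92 to -3.07 and -4.88 to -1.80 in ANCs against APCs, -5.44 to -2.24 and -4.01 to -0.84 in ANCs against heifers, and -0.33 to 2.14 and -0.064 to 2.05 in APCs against heifers. It gave -1.96 to -0.99 and -1.45 to 0.037 in TCs at weeks 5 and 6 against heifers, -0.002 to 1.14 and 0.43 to 1.48 at weeks 9 and 10 against heifers, and 1.45 to 2.65 and 0.97 to 2.47 between the TC times. It gave -3.84 to -0.83 and -3.57 to -0.37 in ANCs against TCs at weeks 5 and 6, -6.03 to -2.88 and -5.11 to -1.93 at weeks 9 and 10, and -0.93 to 1.55 and -1.10 to 1.03 in APCs against TCs at weeks 9 and 10. In APCs against TCs at weeks 5 and 6 it gave 1.09 to 3.46 and 0.46 to 2.48. For bta-miR-451 in ANCs against TCs at weeks 5 and 6 there is no value without TC replicate 2 or 3, since it then missed the filter on low counts. A lone pool was taken to vary like the other group.

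The replicate block changed no member's call other than those above. In the other comparisons the numbers were not taken to pair the pools, since fewer than 3 pairs exist or a same-numbered correlation was not above 0.1. With 2 pairs each it was 0.216 in ANCs against APCs and 0.402 and 0.5 in ANCs against TCs at weeks 9 and 10. It was 0.504 and 0.495 in APCs against TCs at weeks 9 and 10, above the values of TCs at weeks 5 and 6 against heifers. Across these comparisons the block moved the count of calls from 0 to 28 (ANCs against APCs), 0 to 27 and 0 to 2 (ANCs against TCs at weeks 9 and 10 and at weeks 5 and 6), 40 to 65 (ANCs against heifers) and 0 to 7 (TCs at weeks 9 and 10 against heifers). Total reads in place of TMM gave 63 calls for 29 in APCs against heifers, 43 for 23 in APCs against TCs at weeks 9 and 10, and 26 for 16 in TCs at weeks 5 and 6 against heifers, where DESeq2 gave 36. Of 90 alternative correlations 85 were unaltered in call and sign. That of bta-miR-451 with the leukocyte list passed the threshold at a pseudocount of 1 CPM (0.646), and lay between 0.245 and 0.721 without each pool. The correlations of bta-miR-451 and bta-miR-486 with depth changed sign within groups (-0.637 and -0.491). At 145030 reads, 1 read of ANC replicate 2 is worth 6.70 CPM, which limits what can be said of bta-miR-451 there.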

Other observations

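bta-miR-122, a miRNA of hepatocytes taken here as a marker of liver through plasma, differed widely between the pools of ANCs, APCs and heifers. It ranged from 328.8 to 2926 CPM in ANCs, from 631.3 to 5858 CPM in APCs and from 5369 to 17620 CPM in heifers, and from 2682 to 4185 CPM and 4212 to 5712 CPM in TCs at weeks 9 and 10 and at weeks 5 and 6. Against heifers its log2 fold change was -2.27 in APCs, -1.14 in TCs at weeks 5 and 6 and -1.66 in TCs at weeks 9 and 10, none of them called by limma. The epithelial miR-205 fell in APCs (-1.77, limma adjusted p = 0.0678) and in TCs at weeks 5 and 6 (-1.38, limma adjusted p = 0.243) against heifers.

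The summed epithelial miRNAs stood at 5270 to 28410 CPM in APCs, 5796 to 29410 CPM in TCs at weeks 5 and 6 and 5326 to 16500 CPM at weeks 9 and 10. The summed miRNAs of follicular somatic cells stood at 11340 to 11350 CPM in ANCs and 4893 to 14970 CPM in the other groups, and the arms of miR-126 at 930.5 to 2715 CPM over all groups. Of the follicular list miR-383 was listed for heifers only, at 2, 6 and 5 reads.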
